A study of Mus musculus with 8 samples.

Results

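The genes of Wnt signalling were examined in obstructed mouse kidneys from mice given an oligonucleotide that blocks the microRNA miR-214 or a control oligonucleotide. Members were chosen by their platform symbol. They were all genes named Wnt, Fzd, Sfrp, Dkk, Dvl or Tcf7 followed by a number or the letter l, together with 13 single genes of the same pathway (Frzb, Wif1, Lrp5, Lrp6, Axin1, Axin2, Lef1, Gsk3b, Csnk1a1, Porcn, Ror2, Ryk and Tle1). The rule found 57 of the 19057 genes named on the array, with 108 probes. Probes entered the comparison if at least 4 of the 8 arrays had a detection p-value below 0.05. By this filter 44 probes of 30 member genes were tested, among 18601 probes in all, and 27 member genes had no tested probe.

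The kidneys came from adult male mice of the strain labelled C57/bk, taken 7 days after unilateral ureteral obstruction (UUO), an operation that blocks the urine outflow of a kidney and leads to tubule loss, inflammation and scarring. The control group received control antimiR and the treated group anti-miR-214, and each group held 4 animals, measured on 1 bead array each. All 8 kidneys had been obstructed. Kidneys without obstruction were not analysed here, and the sources used here give neither the dose nor the chemistry of the oligonucleotides.

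Wnt proteins are secreted, lipid-modified ligands that bind Frizzled receptors together with a co-receptor. In the canonical branch, receptor activation recruits Dishevelled and stops a cytoplasmic destruction complex from degrading beta-catenin, which then enters the nucleus and activates genes with TCF and LEF factors. Other branches act through the receptors Ror2 and Ryk, cell polarity proteins or calcium. In the kidney, Wnt9b and Wnt4 are known for their part in the formation of nephrons during development, and Wnt signalling is known to be reactivated after tubular injury.

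The agent of the study was directed at miR-214, a microRNA gene on mouse chromosome 1. Its mature arms are shown because they are the treatment's target, from RefSeq (GRCm38.p6), 5′ to 3′, with the seed (bases 2 to 8), the stretch that chiefly pairs with target messages, in capitals. The 3p arm lies at chr1:162223438-162223459 and the 5p arm at chr1:162223397-162223418, both on the plus strand.
mmu-miR-214-3p: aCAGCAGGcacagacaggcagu
mmu-miR-214-5p: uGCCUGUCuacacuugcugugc
The seed of the 3p arm was shared with 1 other mature mouse microRNA in the same table, miR-761, and that of the 5p arm with 0. The array measured messenger RNA, so no level of miR-214 is given.

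Signal over background differed between the groups. Between 41.8% and 43.1% of probes were detected on the control arrays and between 37.2% and 39.2% on the anti-miR-214 arrays (two-sided exact permutation p = 0.0286, which is the lowest value possible with 4 arrays per group). Of the 108 member probes, the control group had 44 to 50 detected per array and the treated group 38 to 46 (exact permutation test, two-sided p = 0.0857). The part of this difference in the results below was not tested. Replicates 1 to 3 of both groups lay on slide 1 and replicate 4 of both groups on slide 2. The kidney label was checked against tubule markers, and all 10 proximal tubule genes looked for passed the detection filter.

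After anti-miR-214, 5 of the 44 member probes fell and 3 rose, while 36 did not pass. The falls were in the ligand gene Wnt5a on both its tested probes and in the receptor gene Fzd1. The other falls were in the brighter probe of the secreted protein gene Dkk3 and the dimmest tested probe of the co-repressor gene Tle1. The rises were in the brighter probe of the Dishevelled gene Dvl1, 1 of 2 probes of the kinase gene Gsk3b and the ligand gene Wnt3a. All changes were moderate, with the largest at 0.84 on the log2 scale and 0 of 44 probes at least 2-fold different.

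The 8 member probes that passed were 18.2% of those tested, against a background of 25.6% of all tested probes (limma, Benjamini-Hochberg adjusted p under 0.05). For falls alone the shares were 11.4% of members and 13.8% of all probes, and for rises 6.82% and 11.8%. The groups did not overlap for 5 member probes (11.4%), against 28.9% of all probes. In this setting the share of calls among members was below the background. The order turned only under another scaling, given next, and held in every other alternative. The median log2 change was -0.14 over the member probes and 0.05 over all tested probes, and 27 member probes lay below 0 and 17 above.

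These counts moved with the scaling of the arrays. When the arrays were scaled to a common median over all probes in place of quantile normalization, 17 member probes fell and 1 rose, while over all probes 4509 fell and 551 rose (main setting 2566 and 2195). Under that scaling 40.9% of member probes passed, above the 27.2% of all probes. The same scaling moved the median of all tested probes to -0.15 and that of the members to -0.36. Relative to the median of all tested probes the members' median was -0.19 in the main setting and -0.21 under that scaling. Without anti-miR-214 replicates 3 and 4 together, 1 member probe fell and 0 rose (limma, adjusted p under 0.05). There 7.52% of all tested probes passed. The number of falls was 2 in place of 5 without control replicate 1, control replicate 2, anti-miR-214 replicate 3 or anti-miR-214 replicate 4, and 3 without anti-miR-214 replicate 1. In the same order 19.9%, 16.3%, 15.9%, 18.6% and 25.1% of all tested probes passed, against 25.6% in the main setting.

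**Figure D1:**
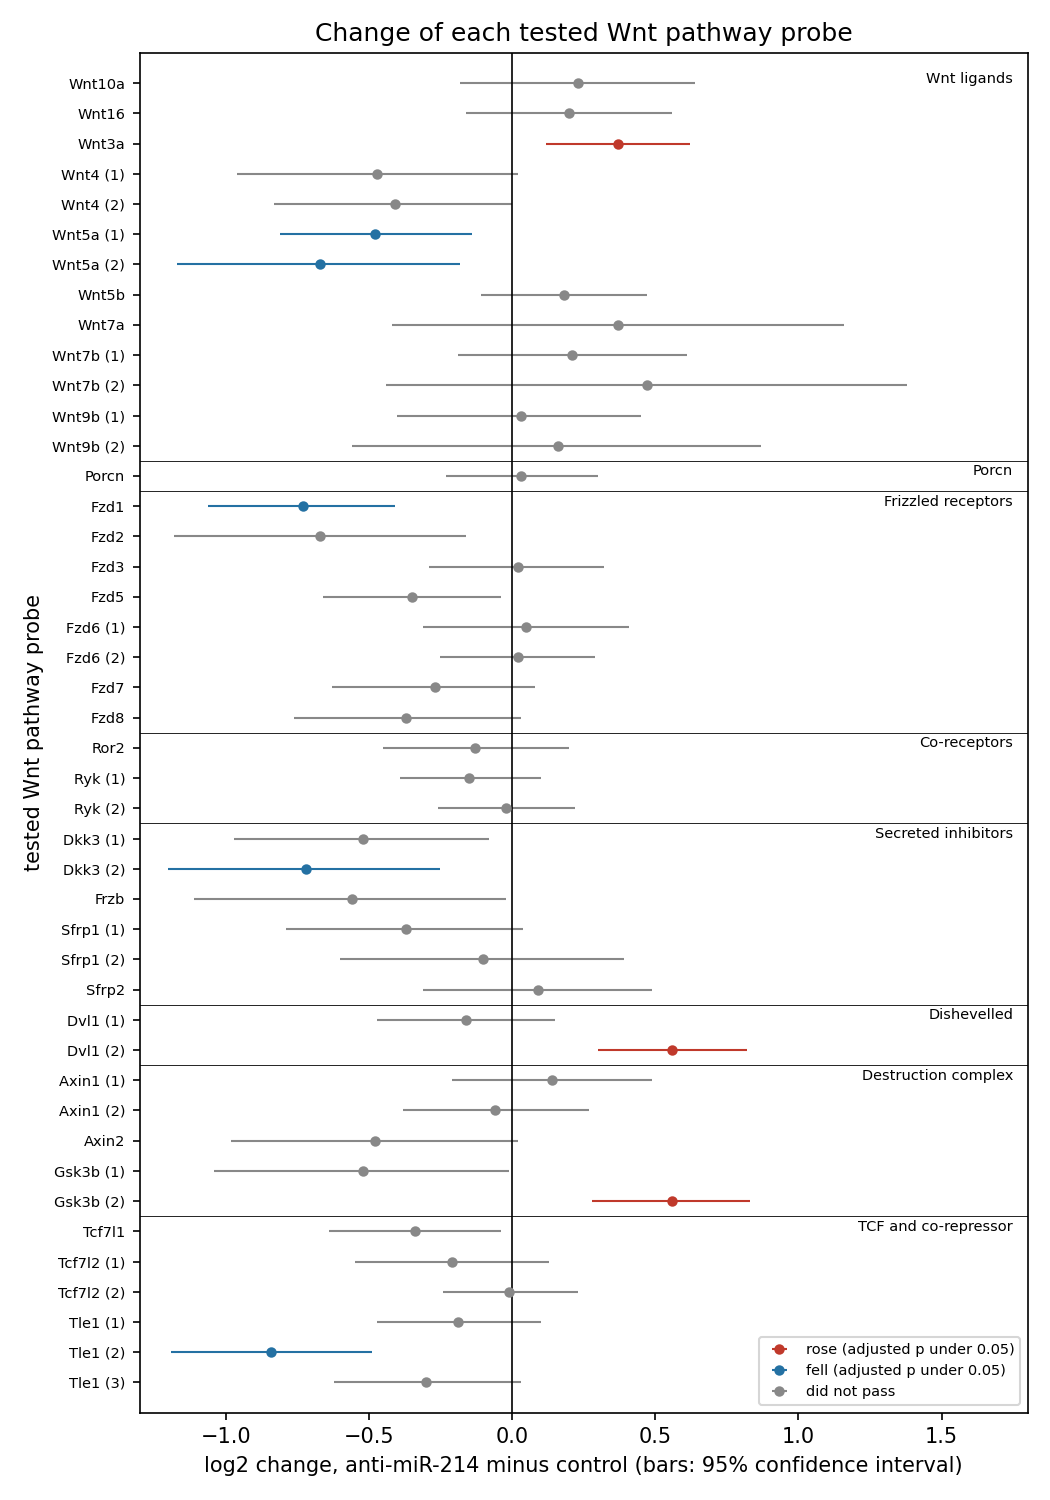
Change of each of the 44 tested probes of Wnt pathway genes, grouped by role. The x axis gives the log2 change (anti-miR-214 minus control), points are estimates over 4 arrays per group and bars the 95% confidence interval from limma, and numbers in brackets tell probes of the same gene apart. Changes lie between -0.84 and 0.56, and 8 probes are coloured as past the threshold.

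Among the Wnt ligands 9 of 19 genes on the array had tested probes. Of 13 ligand probes 2 fell, 1 rose and 10 did not pass. Both falls were in Wnt5a, a ligand known mainly for signalling outside the beta-catenin branch. On its brighter probe (ILMN_2511913) the log2 intensities were 8.84, 8.92, 8.12 and 9.37 in control replicates 1 to 4 and 7.90, 8.27, 8.17 and 8.20 in anti-miR-214 replicates 1 to 4. Control replicate 3 lay below 3 of the treated arrays, so the groups overlapped. The change was -0.67 (SE 0.22, n = 4 per group, limma adjusted p = 0.0479). The dimmer probe (ILMN_2472917) fell by 0.48 (SE 0.15, limma adjusted p = 0.0416), from 6.90 ± 0.18 to 6.42 ± 0.26 (SD, n = 4), and its groups overlapped as well. The remaining Wnt5a probe, detected on 2 arrays, was not tested.

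Wnt5a lay close to the threshold. The brighter probe passed in 8 of 20 alternative settings, with a log2 change of -0.92 to -0.49, and when any 1 array was left out it passed in 1 of 8 cases (adjusted p up to 0.109). The dimmer probe passed in 7 of 20 settings and in 2 of the 8 cases with an array left out. On slide 1 the changes were -0.51 and -0.36 (limma adjusted p = 0.146 and 0.173), and on slide 2, with 1 array per group and no test, -1.17 and -0.83.

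Wnt3a, a ligand known for activating the beta-catenin branch, had log2 intensities of 5.65, 5.64, 5.77 and 5.64 in controls and 6.13, 6.19, 5.86 and 5.99 after anti-miR-214. Every treated array was above every control array. Its change was 0.37 (SE 0.11, limma adjusted p = 0.0369). The probe sat at the detection limit, with 2 of 4 control arrays and 3 of 4 treated arrays detected, and the rise passed in 7 of 19 alternative settings and in 1 of 8 cases with an array left out. With the arrays scaled to a common median over all probes it did not pass.

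The other tested ligands did not pass. Wnt4 had changes of -0.41 (95% confidence interval -0.83 to 0.00) on its brighter and -0.47 (-0.96 to 0.02) on its dimmer probe, with limma adjusted p = 0.126 and 0.142. Wnt5b (0.18), Wnt10a (0.23) and Wnt16 (0.20) lay above 0 with intervals that included 0.

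The collecting duct ligand gene Wnt7b was dominated by single arrays. Its brighter probe read 8.65, 7.41, 7.24 and 7.51 in controls and 7.44, 8.39, 9.31 and 7.56 after anti-miR-214. Control replicate 1 and anti-miR-214 replicates 2 and 3 were high in groups that otherwise lay between 7.24 and 7.56. The change was 0.47 (SE 0.41, limma adjusted p = 0.414). It was 0.10 without anti-miR-214 replicate 3 and 0.79 without control replicate 1, and passed in neither case.

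Wnt7a, whose product is closely related to that of Wnt7b, and Wnt9b were also highest on anti-miR-214 replicate 3. Wnt7a stood at 7.53 on that array and between 5.63 and 6.52 on the other 7. On the brighter Wnt9b probe (ILMN_1231288) that array read 6.73, and on the dimmer probe 7.12. Changes were 0.37 for Wnt7a and 0.03 and 0.16 for the Wnt9b probes, none past the threshold. The summed level of 8 collecting duct markers was 12.35 on anti-miR-214 replicate 3, between the 12.05 and 12.87 of that group's lowest and highest arrays. Control replicate 1 was the lowest control array at 11.75. The part of collecting duct cells in the Wnt7a, Wnt7b and Wnt9b values was not tested. Porcn, the enzyme that attaches the lipid to Wnt proteins, had a change of 0.03 (95% confidence interval -0.23 to 0.30).

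**Figure D2:**
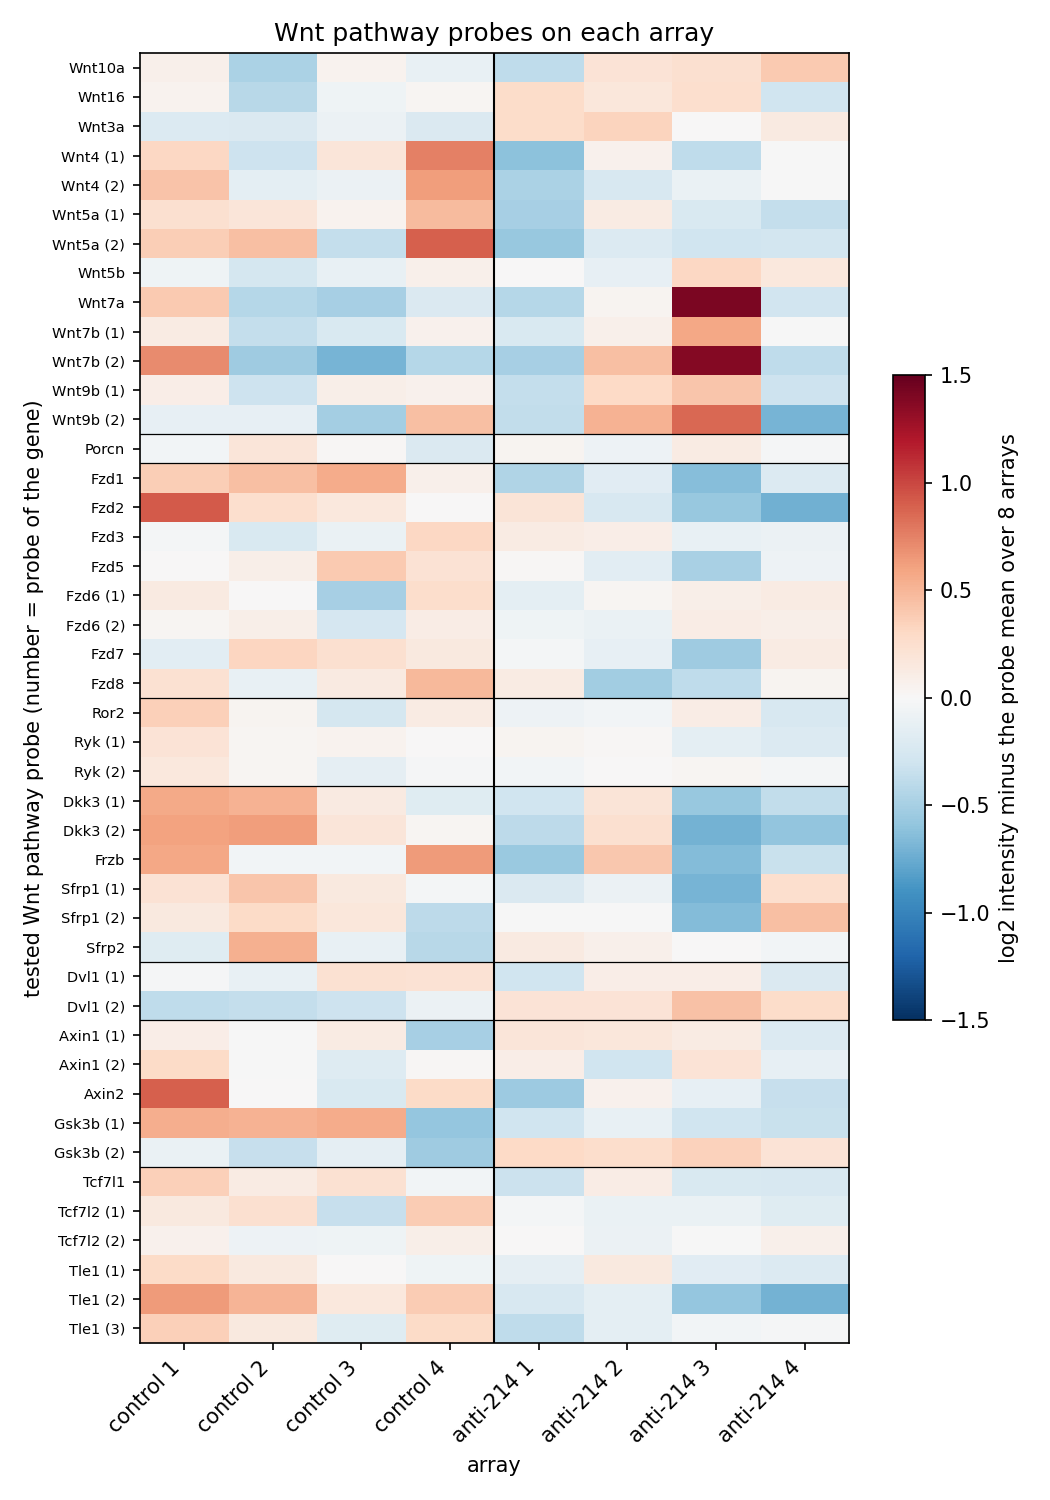
Log2 intensity of the 44 tested probes on each array, minus the probe's mean over the 8 arrays (colour scale, red above and blue below the mean). Columns are the 4 control and 4 anti-miR-214 arrays by replicate number and horizontal lines separate roles. Wnt7a, Wnt7b and Wnt9b are highest on anti-miR-214 replicate 3, and Fzd1 lies above its mean on all 4 control arrays and below it on all 4 anti-miR-214 arrays.

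Of the Frizzled genes 7 of 11 had tested probes, counting the opposite-strand transcript Fzd10os, which the symbol rule took in and which was not detected. Of 8 Frizzled probes 1 fell and 7 did not pass. Their median log2 change was -0.31. The fall was in Fzd1 (ILMN_2683698). Controls read 7.99, 8.07, 8.18 and 7.70 and treated arrays 7.17, 7.45, 6.98 and 7.41. Every treated array was below every control array, a 1.66-fold fall (log2 change -0.73, SE 0.15, limma adjusted p = 0.00677). Fzd1 passed in all 20 alternative settings, with a log2 change of -1.05 to -0.53, and in all 8 cases with an array left out. The change was -0.88 on slide 1 (limma adjusted p = 0.0122) and -0.29 between the 2 arrays of slide 2.

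Fzd2 had a change of similar size but a wider spread. Its log2 intensities were 7.08, 6.41, 6.32 and 6.17 in controls and 6.35, 5.92, 5.59 and 5.44 after anti-miR-214, where 2 of 4 arrays were detected. Anti-miR-214 replicate 1 lay within the control range. The change was -0.67 (SE 0.23, limma adjusted p = 0.0561), and it passed in 5 alternative settings.

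The remaining receptors were nearer 0. Fzd5 stood at -0.35 (95% confidence interval -0.66 to -0.04, limma adjusted p = 0.0854), Fzd8 at -0.37 (-0.76 to 0.03) and Fzd7 at -0.27 (-0.63 to 0.08). Fzd6 gave 0.05 and 0.02 on its probes and Fzd3 gave 0.02. The alternative receptors did not pass either. Ror2, a receptor tyrosine kinase that binds Wnt5a, had a change of -0.13 (-0.45 to 0.20), and Ryk had -0.15 and -0.02. The canonical co-receptor genes Lrp5 and Lrp6 had no tested probe, and their best probes were detected on 3 and 1 control arrays and on 0 treated arrays.

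Secreted modulators had 6 tested probes of 4 genes, of which 1 fell and 5 did not pass (median log2 change -0.45). Dkk3 belongs to the Dickkopf family by sequence, though unlike Dkk1 it is not known as a strong Wnt inhibitor. Its brighter probe (ILMN_2852957) read 11.05, 11.07, 10.63 and 10.48 in controls and 10.06, 10.69, 9.74 and 9.86 after anti-miR-214. Only anti-miR-214 replicate 2 reached the control range. The change was -0.72 (SE 0.22, limma adjusted p = 0.0325).

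The dimmer Dkk3 probe had a change of -0.52 (SE 0.20, limma adjusted p = 0.0789), and the changes of the 2 probes differed by 0.20 (SE 0.12, limma adjusted p = 0.239). The fall of the brighter probe passed in 11 of 20 alternative settings and in 3 of 8 cases with an array left out. On slide 1 it was -0.75 (limma adjusted p = 0.0705) and on slide 2 it was -0.62.

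Frzb, which encodes a secreted Frizzled-related protein that binds Wnt ligands, read 7.95, 7.32, 7.32 and 8.0 in controls and 6.81, 7.77, 6.72 and 7.03 after anti-miR-214. Anti-miR-214 replicate 2 lay within the control range, and the change was -0.56 (SE 0.25, limma adjusted p = 0.112). Sfrp1, of the same family, had -0.37 (95% confidence interval -0.79 to 0.04) on its brighter and -0.10 on its dimmer probe. On slide 1 the Sfrp1 changes were -0.59 and -0.42, and on slide 2, with 1 array per group, 0.29 and 0.84. The difference between slides was not tested. Sfrp2 had a change of 0.09 (-0.31 to 0.49).

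**Figure D3:**
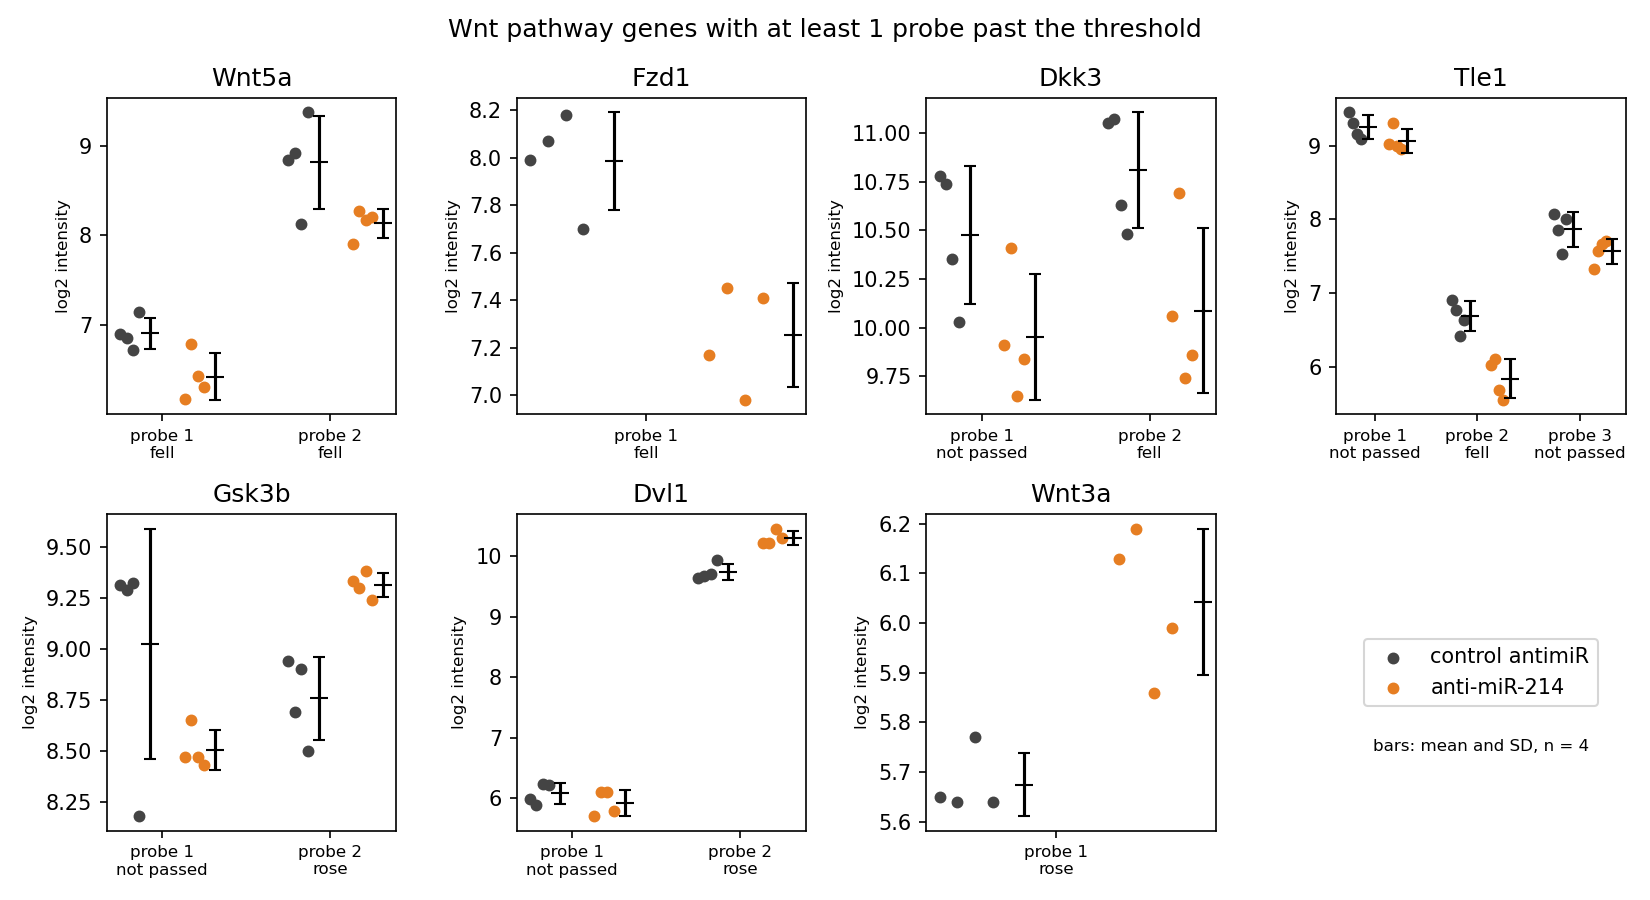
Log2 intensity of every tested probe of the 7 Wnt pathway genes with at least 1 probe past the threshold. Points are single animals (dark grey, control antimiR; orange, anti-miR-214), bars give the mean and SD of 4, and the label under each probe says whether it rose, fell or did not pass. The groups do not overlap for 5 probes, 1 each of Fzd1, Wnt3a, Gsk3b, Dvl1 and Tle1, and the means of the Gsk3b probes lie in opposite directions.

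Inside the cell, Dvl1, which encodes the Dishevelled protein that passes the signal from Frizzled receptors to the destruction complex, rose on its brighter probe (ILMN_1228762). The log2 intensities were 9.64, 9.67, 9.71 and 9.94 in controls and 10.23, 10.23, 10.46 and 10.30 after anti-miR-214. All treated arrays exceeded all controls, a 1.48-fold rise (log2 change 0.56, SE 0.12, limma adjusted p = 0.00769), of 0.63 on slide 1 (limma adjusted p = 0.0185) and 0.36 on slide 2. The rise passed in 19 of 20 alternative settings and in all 8 cases with an array left out, and did not pass without anti-miR-214 replicates 3 and 4 (adjusted p = 0.0695).

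The dimmer Dvl1 probe, detected on 2 of 4 treated arrays, had a change of -0.16 (SE 0.14, limma adjusted p = 0.42). The changes of the Dvl1 probes differed by -0.72 (dimmer minus brighter, SE 0.13, limma adjusted p = 0.00321). The platform table used here does not say which transcripts of a gene each probe detects.

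Gsk3b encodes a kinase of the destruction complex that marks beta-catenin for degradation. One of its probes (ILMN_2593888) read 8.94, 8.69, 8.90 and 8.50 in controls and 9.33, 9.30, 9.38 and 9.24 after anti-miR-214, with no overlap and a change of 0.56 (SE 0.13, limma adjusted p = 0.0106). The other (ILMN_2551852) read 9.31, 9.29, 9.32 and 8.18 in controls and 8.47, 8.65, 8.47 and 8.43 after anti-miR-214. Control replicate 4 was the lowest of all 8 arrays on this probe, while the other controls were the highest. Its change was -0.52 (SE 0.23, limma adjusted p = 0.121), or -0.80 without control replicate 4 (limma adjusted p = 0.00378).

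The Gsk3b probes therefore moved apart, by 1.08 on the log2 scale (SE 0.19, limma adjusted p = 0.00226), and no direction is given for the gene. The rise of the first of these probes passed in 18 of 20 alternative settings. It was lost with the arrays scaled to a common median over all probes and without anti-miR-214 replicates 3 and 4.

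Axin2, a scaffold of the destruction complex and itself a widely used readout of beta-catenin activity, read 7.87, 6.99, 6.75 and 7.27 in controls and 6.43, 7.04, 6.85 and 6.63 after anti-miR-214. Control replicate 1 was the highest array and the groups overlapped. The change was -0.48 (SE 0.23, 95% confidence interval -0.98 to 0.02, limma adjusted p = 0.135). It did not pass, and its interval reaches from -0.98 on the log2 scale to just above 0. The scaffold gene Axin1 had changes of 0.14 and -0.06 on its probes.

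In the nucleus, the tested members were Tcf7l1, Tcf7l2 and the Groucho-family co-repressor gene Tle1, whose product represses TCF targets when beta-catenin is absent. Of their 6 tested probes 1 fell, and all 6 lay below 0. The fall was in the dimmest of 3 tested Tle1 probes (ILMN_1245089). Further Tle1 probes were detected on 0 arrays and not tested. ILMN_1245089 read 6.90, 6.77, 6.42 and 6.64 in controls and 6.02, 6.11, 5.68 and 5.55 after anti-miR-214. The groups did not overlap, and 2 of 4 treated arrays were detected. The change was -0.84 (SE 0.16, limma adjusted p = 0.00502), and it passed in 18 of 19 alternative settings, the exception being the one without anti-miR-214 replicates 3 and 4 (adjusted p = 0.0501).

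The brightest Tle1 probe had a change of -0.19 (SE 0.13, limma adjusted p = 0.3) and the middle probe of -0.30 (SE 0.15, limma adjusted p = 0.154). The dimmest and the brightest differed by -0.66 (SE 0.13, limma adjusted p = 0.00452). Tcf7l1, which encodes a factor known mainly as a repressor, stood at -0.34 (95% confidence interval -0.64 to -0.04, limma adjusted p = 0.0899). Tcf7l2, which encodes a main partner of beta-catenin in adult epithelia, gave -0.21 and -0.01.

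Agreement between probes was examined in the 13 member genes with several tested probes. Of 14 pairs of a dimmer probe and the brightest probe of its gene, 3 differed in their change (Dvl1, Gsk3b and Tle1, limma on the difference, adjusted over 5307 pairs of all genes), and over all genes 28.1% of pairs differed. Wnt5a was the 1 gene of the 13 whose probes all passed the same way. By the brightest probe of each gene, 3 of 30 member genes rose and 3 fell, or 20.0% called against 22.3% of 10734 named genes.

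The 27 member genes without a tested probe were near or below the detection limit. For 19 of them no probe was detected on any array, namely Dkk1, Dkk2, Dkk4, Dkkl1, Dvl2, Dvl3, Fzd9, Fzd10os, Sfrp4, Sfrp5, Wif1, Wnt1, Wnt2b, Wnt3, Wnt8a, Wnt8b, Wnt9a, Wnt10b and Wnt11. The other 8 had a best probe detected on 1 to 3 arrays, namely Csnk1a1, Fzd4, Fzd10, Lef1, Lrp5, Lrp6, Wnt2 and Wnt6. A probe that is not detected gives only a bound on its message and does not show that the gene is silent.

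Promoter windows of 300 bases (250 before and 50 after the annotated start, RefSeq, GRCm38.p6) were found for 39 of the 57 member genes. They were searched on both strands for CTTTGAT and CTTTGAA, letters of the core that TCF and LEF factors are known to bind. A match was present, in at least 1 window of the gene, in 3 of the 39 genes (7.7%), Dkk1, Wnt11 and Wnt5b, against 9.9% of 27025 genes. Windows are shown for Fzd1 and Dvl1, the members whose fall and rise passed in the most settings, neither of which holds these letters, and for Wnt5b, the 1 tested member with a match, which lies in 1 of the 3 windows of that gene. They run 5′ to 3′ along the gene, with the match in capitals.
Fzd1 (chr5:4758167-4758466, minus strand): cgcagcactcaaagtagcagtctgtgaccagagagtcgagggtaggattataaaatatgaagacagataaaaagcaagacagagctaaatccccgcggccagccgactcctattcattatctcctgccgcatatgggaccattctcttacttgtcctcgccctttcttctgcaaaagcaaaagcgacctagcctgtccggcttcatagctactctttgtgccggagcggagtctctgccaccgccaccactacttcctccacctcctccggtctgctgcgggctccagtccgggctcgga
Dvl1 (chr4:155847152-155847451, plus strand): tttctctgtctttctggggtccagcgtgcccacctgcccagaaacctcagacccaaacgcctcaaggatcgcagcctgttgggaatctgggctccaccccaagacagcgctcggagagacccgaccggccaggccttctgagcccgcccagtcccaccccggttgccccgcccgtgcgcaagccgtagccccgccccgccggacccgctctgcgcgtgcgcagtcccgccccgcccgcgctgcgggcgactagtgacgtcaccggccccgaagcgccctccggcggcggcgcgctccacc
Wnt5b (chr6:119449337-119449636, minus strand): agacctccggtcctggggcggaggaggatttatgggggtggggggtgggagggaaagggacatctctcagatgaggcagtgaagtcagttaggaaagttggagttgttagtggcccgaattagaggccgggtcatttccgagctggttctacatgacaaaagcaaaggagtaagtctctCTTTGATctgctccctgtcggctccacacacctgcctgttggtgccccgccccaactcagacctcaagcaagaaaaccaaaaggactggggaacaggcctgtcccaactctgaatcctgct
The windows of Fzd1 and Dvl1 had 54.0% and 72.3% G and C. No match says only that these letters are not in the window. Of the genes with a probe past the threshold, Gsk3b, Tle1 and Wnt3a also had windows, none with a match.

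Genes around the members were read from 5 lists of the pathway, by the brightest tested probe of each gene. In the 4 lists of pathway components 3 of 85 genes rose, 8 fell and 74 did not pass, where 12.3% of all named genes rose and 9.93% fell. The brightest probe does not speak for all probes of a gene, and 13 of the 74 genes had another probe past the threshold, lower for 12 and higher for 1. With the arrays scaled to a common median over all probes, falls numbered 4, 3, 4 and 5 in the lists as ordered below, in place of 2, 1, 1 and 4. Over all 18601 tested probes 4509 fell under that scaling, in place of 2566. With any 1 array left out, 15.9% to 25.9% of all tested probes passed in either direction, against 25.6% in the main setting. Among 19 genes of the destruction complex and beta-catenin 1 rose, 2 fell and 16 did not pass (median log2 change 0.03). Csnk2a1, a catalytic subunit of casein kinase 2, rose from 7.49, 7.66, 7.88 and 7.57 to 8.56, 8.67, 8.66 and 9.05, with no overlap (log2 change 1.09, SE 0.14, limma adjusted p = 0.000944). Its other probes gave 1.01, which passed, and 0.27, which did not.

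Beta-catenin itself (Ctnnb1) fell by 0.37 on its brightest probe (SE 0.12, limma adjusted p = 0.0485), with 12.52, 12.59, 12.44 and 12.27 in controls and 11.98, 12.25, 12.17 and 11.96 after anti-miR-214. All treated arrays were below all controls. The other Ctnnb1 probes gave -0.75, which passed, and 0.36 and 0.09, which did not. Apc, which encodes the scaffold that holds beta-catenin in the complex, was detected on 4 control arrays and 0 treated arrays on its brightest probe. Its level after anti-miR-214 was lower by at least 1.63-fold. The adjusted p from limma (0.000324) is of the fit that includes the undetected treated signals, not of this bound. This probe met the detection filter through the control arrays alone, and 1 gene of the list fell when Apc is left aside. Its other probe had a change of 0.17 and did not pass. In this list 1 gene in place of 2 fell without control replicate 1, 2 or 3.

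Among 16 genes of Wnt secretion, agonists and surface inhibitors 1 fell and 15 did not pass (median -0.04). That gene was Nkd2, which encodes a Dishevelled-binding antagonist. It read 8.98, 8.79, 8.53 and 8.0 in controls and 6.83, 7.75, 7.78 and 7.65 after anti-miR-214, with every treated array below every control (log2 change -1.08, SE 0.25, limma adjusted p = 0.012). Atp6ap2, which encodes the prorenin receptor, an adaptor between Wnt co-receptors and the proton pump, had a brightest probe that did not pass (log2 change -0.26) and 3 dimmer probes that passed, with log2 changes of -2.81, -2.21 and -1.92 (highest limma adjusted p = 0.000622). Wls, which encodes the carrier that takes Wnt proteins to the cell surface, stood at -0.22 on its brightest probe, and 2 of its other 4 probes passed, with -0.60 and -0.47. Both genes were named after their values were seen. Of 20 nuclear cofactors 2 rose, 1 fell and 17 did not pass (median 0.19). This balance turned to 1 rise and 4 falls with the arrays scaled to a common median over all probes. Under that scaling 551 of all tested probes rose and 4509 fell. Crebbp, a histone acetyltransferase gene, rose by 0.72 and Tbl1x, of a co-repressor complex, by 0.46, with its other probe at -0.08. Crebbp lay near the detection limit, with 3 of 4 control arrays detected. The related acetyltransferase gene Ep300 fell by 0.52 on its brightest probe and rose by 0.52 on the other (limma adjusted p = 0.0237 and 0.0294). In this list 0 genes fell without control replicate 1, 2 or 3 or anti-miR-214 replicate 3 or 4 (limma, adjusted p).

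Of 30 genes of the polarity and calcium branches 4 fell and 26 did not pass (median 0.05), and 2 fell without control replicate 2 or 3. They were the kinase genes Rock1 (log2 change -0.79) and Camk2d (-0.89, with other probes from -0.38 to 0.35 that did not pass), the calcineurin subunit gene Ppp3r1 (-0.66) and the small GTPase gene Cdc42 (-0.41). The probe of Camk2d that fell was detected on 2 of 4 treated arrays. With the arrays scaled to a common median of the tested probes, a setting chosen after seeing the data, 3 genes of this list fell and 4 rose.

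Of 28 measured genes reported elsewhere as targets of beta-catenin and TCF, 7 fell, 1 rose and 20 did not pass (median -0.14). Those called were 28.6% of the list, against 22.3% of all named genes (9.93% fell and 12.3% rose). With the arrays scaled to a common median over all probes 12 genes of the list fell. Under that scaling 4509 of all 18601 tested probes fell, in place of 2566. The list was drawn from general knowledge and includes genes that other pathways control. Fibronectin (Fn1), a matrix glycoprotein of scar tissue, had the largest change at -2.37 (SE 0.32, limma adjusted p = 0.00112), with its other probe at -1.38. The receptor gene Met and the transcription factor gene Snai1 were detected on 4 control and 0 treated arrays. They met the detection filter through the controls alone, and 5 genes of the list fell when both are left aside. Their levels were lower by at least 1.88-fold and at least 1.02-fold. The adjusted p-values from limma (0.000494 and 0.00883) are of fits that include the undetected treated signals, not of these bounds.

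The angiotensin receptor gene Agtr1a fell by 0.77, the membrane protease gene Mmp14 by 1.03, Snai2 by 0.64 and Tiam1 by 0.47. Cyclin D1 (Ccnd1), which drives entry into the cell cycle, rose from 11.46, 11.50, 11.66 and 11.28 to 11.99, 11.88, 12.35 and 12.33. The groups did not overlap (log2 change 0.66, SE 0.14, limma adjusted p = 0.00899), and its other probes also rose, by 0.71 and 0.74. Myc, another gene often used as a target, had a change of -0.08 and did not pass.

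**Figure D4:**
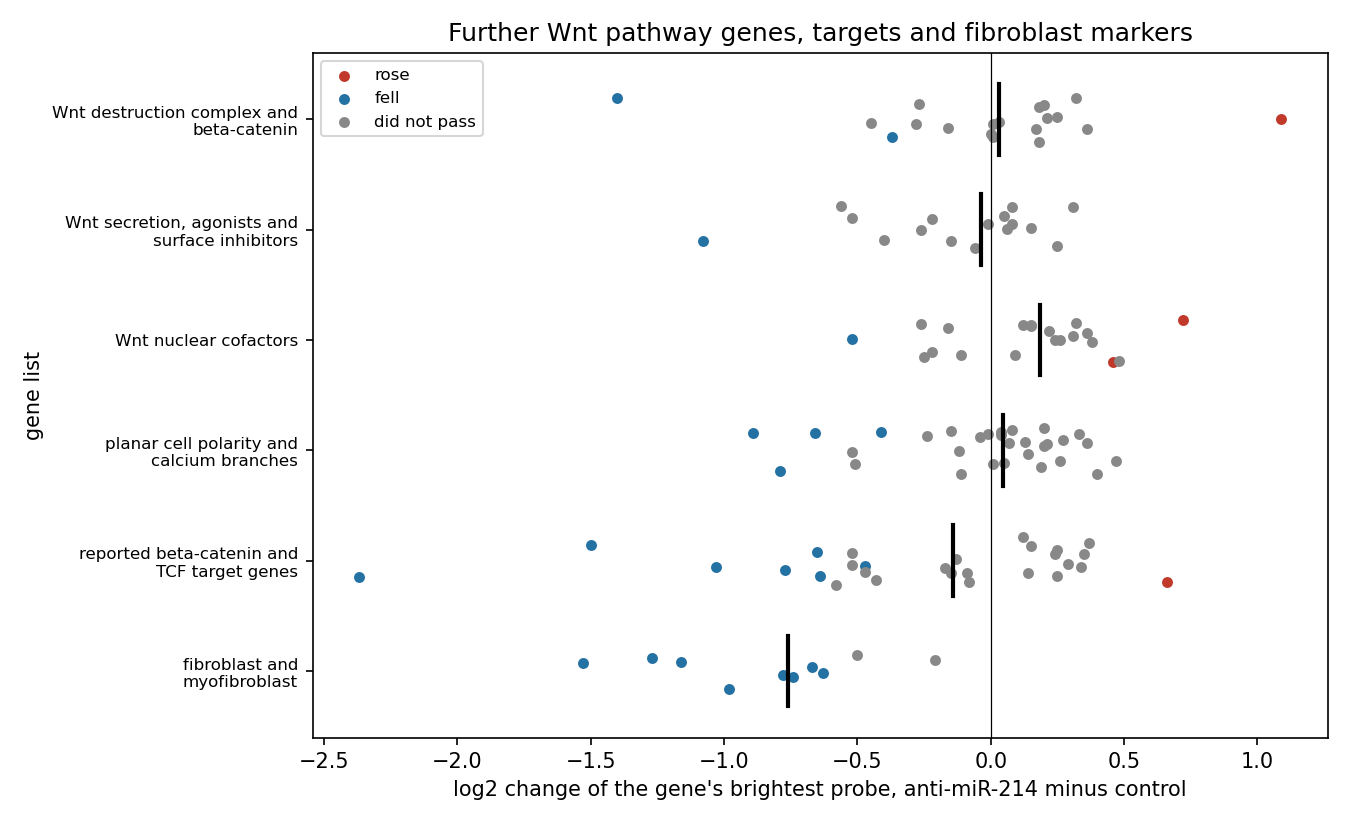
Log2 change (anti-miR-214 minus control) of each gene's brightest tested probe in 5 lists of Wnt pathway genes and targets and in the list of fibroblast markers. Points are genes, coloured by whether they rose, fell or did not pass, and black lines mark list medians, which lie between -0.14 and 0.19 for the pathway lists and at -0.76 for the fibroblast list.

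Markers of several cell types moved in the same comparison. By the brightest probe 9.93% of all named genes fell and 12.3% rose. Of 10 tested fibroblast and myofibroblast markers 8 fell, and 10 of 10 lay below 0 (median -0.76), with Postn not passing the detection filter. The number of falls was 4, 5, 3 and 4 without control replicate 1, control replicate 2, anti-miR-214 replicate 3 and anti-miR-214 replicate 4, and 0 without the last 2 of these together (limma, adjusted p under 0.05). In the same order 19.9%, 16.3%, 15.9%, 18.6% and 7.52% of all tested probes passed in either direction, against 25.6% in the main setting. The summed level of the 10 fibroblast and myofibroblast markers was 14.25 to 14.85 on control and 13.62 to 14.33 on anti-miR-214 arrays (exact permutation test, two-sided p = 0.0571). Of 9 macrophage markers 4 fell, with a summed level of 13.99 to 14.20 on control and 12.84 to 13.60 on treated arrays (exact permutation test, two-sided p = 0.0286). Lyz2 was the brightest of them on control arrays and changed by -2.32 on its brightest probe. Its other probes gave -0.43, which passed, and -0.57, which did not. Another 2 macrophage markers, not called by their brightest probe, had a dimmer probe that fell. Of 7 endothelial markers 3 fell. The summed level of all 7 was 13.23 to 13.72 on control and 12.43 to 13.37 on treated arrays (exact permutation test, two-sided p = 0.0571).

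Of 5 T and NK cell markers 1 rose and 4 did not pass, while Cd4, Cd8a and Gzmb had no tested probe. The rise was in Prf1, which encodes the pore-forming protein of cytotoxic cells, with 10.79, 10.61, 10.67 and 10.45 in controls and 11.40, 11.32, 11.89 and 11.55 after anti-miR-214 (log2 change 0.91, limma adjusted p = 0.00231). Cd3d and Nkg7 had changes of 0.59 and 0.57 and did not pass (limma adjusted p = 0.0564 and 0.0545). The other CD3 genes, Cd3e and Cd3g, had changes of 0.00 and 0.13. The 5 markers summed to 11.03 to 11.37 on control and 11.74 to 12.27 on treated arrays (exact permutation test, two-sided p = 0.0286). Prf1 was the brightest of them. Over all named genes 12.3% rose by the brightest probe. Of 5 podocyte markers 2 rose, of 10 proximal tubule markers 2 rose and of 8 collecting duct markers 1 rose. These rises depended on the setting. With the arrays scaled to a common median over all probes 0 rose in each of these 3 lists (limma, adjusted p under 0.05). Under that scaling 551 of all 18601 tested probes rose, in place of 2195. When 1 array was left out, 0 proximal tubule markers rose in 7 of 8 cases, 0 collecting duct markers in 5 of 8 cases and 1 podocyte marker in 5 of 8 cases. In those 8 cases 15.9% to 25.9% of all tested probes passed in either direction. Of 5 markers of the thick limb and distal tubule 0 passed in limma, and 0 had an unadjusted p under 0.05. The part of these markers in the changes of Wnt5a, Fzd1, Dkk3 and the other members was not tested. In RNA from whole tissue, fewer cells of a type and less RNA per cell cannot be told apart.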

How the data were processed

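Biotin-labelled cRNA from kidney was hybridised, per the labels' protocols, to mouse bead arrays made by Illumina. The deposited table used here holds non-normalized bead intensity and a detection p-value per probe, per the file headers. Another deposited table holds linear intensity values of unstated background treatment, with column medians of 20.2 to 20.4, an upper quartile of 147.7 on each array and 29.0% to 29.2% of values below 0, and was used as an alternative. Export software is not given in the sources used here. Columns of other series numbered 0.

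The raw values were processed in limma 3.58.1 (R 4.3.3) by neqc (offset 16, negative controls inferred from detection p-values, quantile normalization, log2), so changes of dim probes understate differences in RNA. The 18601 probes were fitted by lmFit and eBayes on group, with Benjamini-Hochberg adjustment over all and a threshold of 0.05. Fits were tested on simulated data. Arrays have no read depth, and their number limits the precision. Whether animals were treated in batches is not given. Names came from the platform annotation, with 34885 probes of 1 symbol, 18 of several (left unnamed) and 10378 not listed. RefSeq (GRCm38.p6) changed 0 symbols. The array's build is not given, so only RefSeq sequences carry coordinates.

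Probe disagreement was tested on the difference of a probe and its gene's brightest probe on each array. For genes undetected throughout a group, the fold is a lower bound, taken with the dim group set per array to its own signal or to the lowest detected signal, whichever is higher. The summed level of markers is the log2 of their added linear intensities.

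The members and lists were chosen with earlier results of these data known. All tested members are described, and of each pathway list up to 8 genes past the threshold by smallest p, and Myc, Atp6ap2 and Wls were added after their values were seen. Same-numbered arrays deviated together at correlations of 0.02, 0.06, 0.05 and 0.20, of which 1 exceeded 0.1, so numbers were not used as pairs. Alternatives covered background, scaling, filter, slide, replicate number, table, variance model and left-out arrays.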

Additional observations from a re-analysis of the deposited data

Results flagged for a closer look

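In 4 of the 88 groups of 4 arrays examined (2 groups for each of 44 member probes) a single array stood apart from the others, by a gap to its nearest neighbour that was large against the group's range (Dixon's test). Chance flags about 1 in 20 groups.

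On the brighter Axin1 probe anti-miR-214 replicate 4 read 9.29 against 9.62 to 9.68 on the others, and control replicate 4 was also the lowest control. On the Gsk3b probe whose change was -0.52 (ILMN_2551852), control replicate 4 read 8.18 against 9.29 to 9.32 on the other controls. On the Wnt3a probe control replicate 3 read 5.77 against 5.64 to 5.65. On the brighter Wnt9b probe (ILMN_1231288) control replicate 2 read 6.01 against 6.38 to 6.42. Replicate 4 of each group was on slide 2, and the part of the slide in these values was not tested.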

How the results depend on the processing

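Over 20 alternatives, 0 member probes past the threshold in any setting turned direction. Of the member probes that passed in the main setting, Fzd1 passed in all 20, Dvl1 in 19, Gsk3b in 18, Tle1 in 18 of 19 and the others in 7 to 11. A further 12 member probes passed in at least 1 alternative, most often Fzd2 and the other Gsk3b probe, in 5 each. With arrays scaled to a common median over all probes 1 member probe rose and 17 fell (member median -0.36), and 551 of all probes rose and 4509 fell. With the median of the tested probes as the scale, chosen after seeing the data, 3455 of all probes rose and 2297 fell, and 3 member probes rose and 4 fell. Without a detection filter 3 member probes fell, the member median was -0.01 over all 108 probes, and 5 pairs of probes of the same member gene differed, against 1 pair with detection on all 8 arrays, where fewer probes are tested. Slide 1 alone gave 3 member probes lower and 1075 higher and 1474 lower of all probes. Without anti-miR-214 replicates 3 and 4 together 0 member probes rose and 1 fell (all probes 437 and 962). The cause of these moves was not tested. When each array was left out in turn, 2 to 3 member probes rose and 2 to 7 fell, with a member median of -0.16 to -0.09, 1222 to 2196 of all probes higher and 1741 to 2629 lower, and 3 differing probe pairs in each case. The count of member falls was 2 without control replicate 1, control replicate 2, anti-miR-214 replicate 3 or anti-miR-214 replicate 4, and 3 without anti-miR-214 replicate 1. With the replicate number as a block, 2 member probes rose and 6 fell (all probes 2121 and 2477); only replicate 4 correlated best with its own number, so the numbers are not taken as pairs. Of 20 settings, those not named here kept the member counts within 1.5 times. Probes near the detection limit (Wnt3a, Fzd2, the dimmest tested Tle1 probe) are limited by signal over background.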
